A study of Homo sapiens with 12 samples.

Results

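The main effect of vorinostat was measured in SK-N-Be(2)C cells, a human neuroblastoma line, as the mean of both vorinostat-exposed groups minus the mean of both unexposed groups on the log2 scale. The exposed arm held 6 arrays, 3 of WT-v and 3 of DoxR-v, and the unexposed arm held 6 arrays, 3 of WT and 3 of DoxR, which were all 12 arrays of the series analysed here. WT were the parental cells, and WT-v were parental cells given vorinostat alone, at intervals. DoxR were cells grown in stepwise doxorubicin until they survived it, and DoxR-v were made in parallel with vorinostat at each logarithmic step of the doxorubicin dose. Vorinostat (SAHA) was given at its IC25, that is, a dose with a weak effect on growth. The labels do not say whether the drug was still on the cells when RNA was taken. Each group was 1 cell line in triplicate, and nothing in the labels says that the triplicates were separate cultures, so the p-values below measure the spread between specimens. Each arm therefore rested on 2 lines, and DoxR and DoxR-v were selected separately, so a change that arose by chance in 1 selected line cannot be told apart from a change that vorinostat made there.

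Vorinostat inhibits histone deacetylases of classes I and II. These enzymes remove acetyl groups from histone tails and other proteins, mostly as the catalytic part of corepressor complexes, and their inhibition is known to raise some genes and lower others within hours. Neuroblastoma arises from sympathetic neuron precursors and often keeps the catecholamine pathway, in which tyrosine hydroxylase (TH) makes L-DOPA, DDC makes dopamine and DBH makes noradrenaline. Of the neuroblastoma markers chosen as a check of the cell type, 11 were tested and 10 were detected on all 12 arrays. TH was the exception, as it was not detected in DoxR cells. Of 10 markers of blood, endothelial, epithelial and mesenchymal cells, 2 were tested and 0 were detected on all 12 arrays.

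Calls needed a fold change over 1.5 and a limma adjusted p under 0.1. In the main effect 1858 of 12138 genes were called (15.3%), 899 higher (7.41%) and 959 lower (7.9%) in exposed cells. In 576 of these genes (4.75% of those tested) the lowest array of one arm lay above the highest array of the other. Of these 576 genes, 260 were higher (2.14%) and 316 lower (2.6%). A further 232 genes did not overlap between the arms but had too small a fold change or too large an adjusted p to be called. The gap between the arms was narrow in most of the 576. It was over 0.5 on the log2 scale in 99 genes and over 1 in 29, and it was 0.001 for the gene just inside the rule and −0.001 for the called gene just outside it. The difference was over 2-fold in 216 of the 576 genes and over 4-fold in 41, of which 14 were higher and 27 lower. Of the 576 genes, 204 had a further tested probe, 262 probes in all. Of these probes 240 had the same sign, 160 were called the same way and 0 were called the opposite way.

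Scale, the terms of the model and the unit of replication changed these counts. Without quantile normalization, when arrays were only scaled to the same median, the median of all genes moved from 0.03 to 0.15, and the calls split into 1659 higher and 631 lower. Without a term for background (parental or resistant) in the fit, 1202 genes were called. With the cell line as a random block, also without that term, 96 genes were called, 36 higher and 60 lower, and all 96 were without overlap. Of 69 genes named by rule and called in the main effect, 30 kept their call in that fit. They were the rising genes TH, GCA, MSN, SLC16A14, ZNF558, MGAT3, RGMA, PRR35, GRM8, AEBP1, ECI2, LUM, TUBB4A, EDIL3 and EME1, and the falling genes TMSB4X, CDKN2A, COL22A1, ENPP2, GPBAR1, B3GAT1, CNGB1, PITX1, STMN4, CHODL, AKR1C2, AKR1C4, PNMA2, RAB31 and RIMS2. The other 39 lost it. When the 4 lines were reduced to their means, again without a term for background, limma called 1 gene, GCA.

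The promoters of 4 genes that changed in the same direction in both backgrounds are printed here with the match that most promoters of the set shared, the GC box, in capitals where it occurs. This is the motif GGGCGG (or CCGCCC on the other strand) that Sp family factors bind. The sequences are from RefSeq in the build GRCh38.p14 and run from 250 bases before to 50 bases after the start listed first for each gene, on the gene's own strand. GCA lay at chr2:162318513-162318812 (plus strand), MSN at chrX:65588127-65588426 (plus strand), TMSB4X at chrX:12974860-12975159 (plus strand) and CDKN2A at chr9:21995275-21995574 (minus strand). GCA and MSN rose with vorinostat in both backgrounds, and TMSB4X and CDKN2A fell in both. The CDKN2A window held no GC box.
GCA: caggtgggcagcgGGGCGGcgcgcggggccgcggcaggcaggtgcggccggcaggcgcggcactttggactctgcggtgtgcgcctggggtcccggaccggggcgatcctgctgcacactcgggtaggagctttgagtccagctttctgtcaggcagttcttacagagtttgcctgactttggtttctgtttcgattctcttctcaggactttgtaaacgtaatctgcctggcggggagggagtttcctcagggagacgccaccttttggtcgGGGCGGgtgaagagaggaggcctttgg
MSN: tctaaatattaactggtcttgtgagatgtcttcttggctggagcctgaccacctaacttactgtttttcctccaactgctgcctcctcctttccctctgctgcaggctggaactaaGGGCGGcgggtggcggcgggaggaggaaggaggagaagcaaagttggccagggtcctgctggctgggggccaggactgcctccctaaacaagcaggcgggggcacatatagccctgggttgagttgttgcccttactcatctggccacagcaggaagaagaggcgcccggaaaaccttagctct
TMSB4X: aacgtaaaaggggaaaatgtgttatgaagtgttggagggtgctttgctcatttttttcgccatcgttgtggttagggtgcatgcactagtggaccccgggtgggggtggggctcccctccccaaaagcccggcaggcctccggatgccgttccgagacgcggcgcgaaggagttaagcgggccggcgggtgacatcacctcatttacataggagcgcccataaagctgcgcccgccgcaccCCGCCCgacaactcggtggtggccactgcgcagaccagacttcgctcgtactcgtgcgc
CDKN2A: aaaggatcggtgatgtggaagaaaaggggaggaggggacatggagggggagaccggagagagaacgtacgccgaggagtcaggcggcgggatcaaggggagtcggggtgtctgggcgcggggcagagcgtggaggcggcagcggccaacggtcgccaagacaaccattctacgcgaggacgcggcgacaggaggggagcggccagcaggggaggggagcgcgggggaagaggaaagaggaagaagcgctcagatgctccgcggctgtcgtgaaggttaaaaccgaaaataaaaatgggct

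The GC box was in 74.1% of 216 promoters of genes called higher without overlap, in 68.5% of 232 promoters of genes called lower and in 68.6% of 9700 promoters of all genes tested. Over all 27303 promoters of the table it was in 44.6%. The CCAAT box (CCAAT) was in 41.7% of the higher set, 34.9% of the lower set and 37.6% of all genes tested. The cAMP response element (TGACGTCA) was in 3.24%, 1.72% and 3.41%, in the same order. The E-box CACGTG was in 10.2%, 12.1% and 10.2%, and TATAAA was in 5.56%, 4.74% and 6.23%. Both strands were searched. The shares in both sets lay close to those of all genes tested, and no test was made of them. A match describes these letters only and is not a binding site.

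TH, the rate-limiting enzyme of catecholamine synthesis, had the largest main effect of the 12138 genes. Its log2 signals were 7.46, 8.10 and 7.84 on the WT arrays and 4.48, 4.43 and 4.45 on the DoxR arrays, which were not above background. On the WT-v arrays they were 13.40, 13.22 and 13.54, and on the DoxR-v arrays 13.45, 13.47 and 13.26. All exposed arrays were thus higher than all unexposed arrays, and the lowest exposed array lay more than 5 units above the highest unexposed one. WT had a mean of 7.80 ± 0.32 (SD, n = 3), DoxR 4.46 ± 0.03, WT-v 13.39 ± 0.16 and DoxR-v 13.39 ± 0.11. The means of the exposed groups did not differ beyond their spread. The main effect was 7.26 (SE 0.12, adjusted p = 1.02e-13 in limma), at least 109-fold, where DoxR was set to the lowest detected signal of its arrays. The effect was 5.58 in the parental background (47.9-fold) and 8.94 in the resistant background (at least 247-fold), and the difference of 3.35 between the backgrounds was called (adjusted p = 2.61e-07). A second TH probe gave a main effect of 7.24 (SE 0.11).

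**Figure D1:**
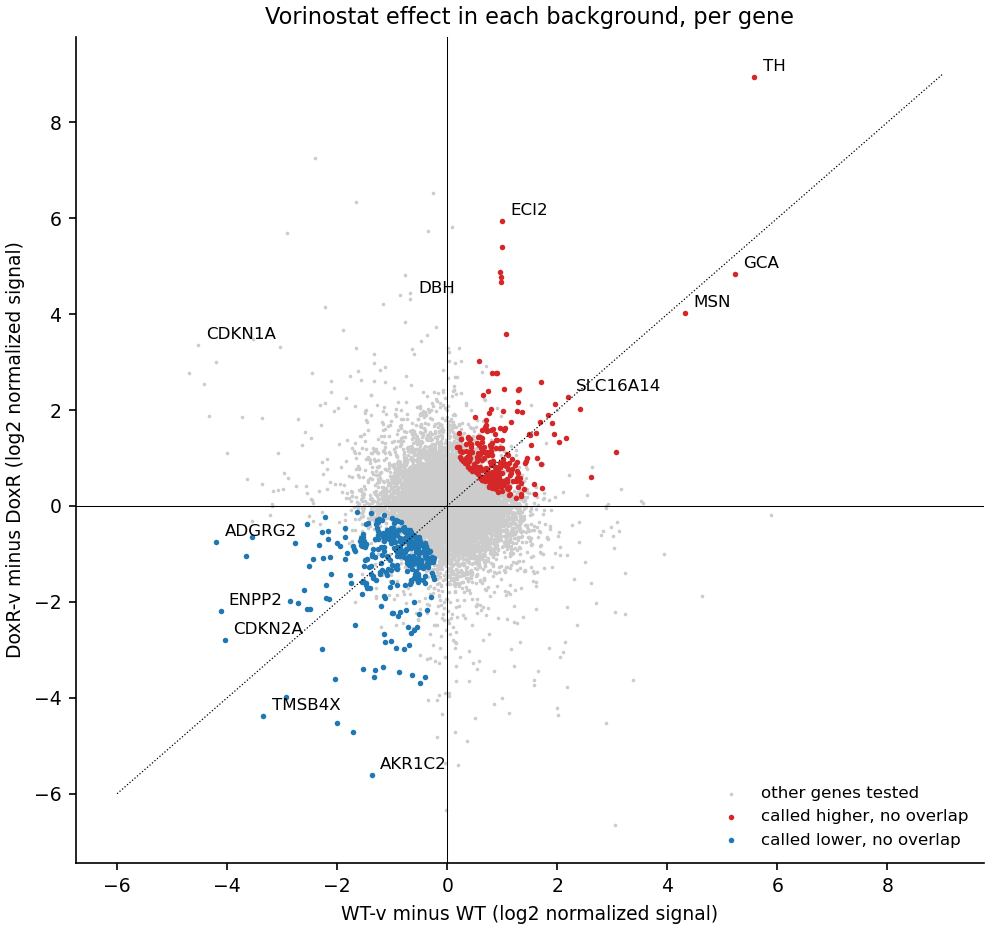
Each point is 1 of 12138 genes, with the difference WT-v minus WT on the x axis and DoxR-v minus DoxR on the y axis, both in log2 normalized signal; red and blue points are the 260 higher and 316 lower genes called without overlap between the arms, and the dotted line marks equal effects. TH, GCA and MSN stand apart at the upper right, while the cloud of all genes does not follow the dotted line (Pearson r across genes = −0.06).

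GCA and MSN had the next largest main effects. GCA encodes grancalcin, a calcium-binding protein known from neutrophils. Its signal was 4.49 to 4.67 on the WT arrays and 4.39 to 4.60 on the DoxR arrays, none of them above background, and 9.66 to 9.98 on the WT-v and 9.14 to 9.62 on the DoxR-v arrays. GCA was thus detected on 6 of 6 exposed and 0 of 6 unexposed arrays. The main effect was at least 16.4-fold (log2 5.03, SE 0.11, adjusted p = 4.75e-12), with log2 5.23 in the parental and 4.83 in the resistant background. MSN encodes moesin, which anchors actin filaments to the plasma membrane. Its signal ranged from 5.86 to 7.22 over the unexposed arrays (median 6.36) and from 9.87 to 11.30 over the exposed arrays (median 10.48). The arms did not overlap, and the gap was wider than the range of either. MSN rose 18.1-fold (log2 4.17, SE 0.19, adjusted p = 5.88e-09), by 4.33 in the parental and 4.02 in the resistant background. The difference between backgrounds was not called for either gene.

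Smaller rises were called in both backgrounds for the 8 further genes described here, among others named by rule. SLC16A14, of the monocarboxylate transporter family, rose by 2.19 and 2.27 on the log2 scale in the parental and resistant backgrounds, at least 2.42-fold over both, since no unexposed array detected it. ZNF558, a zinc finger protein, rose by 2.41 and 2.01 (at least 2.29-fold) and was likewise detected on exposed arrays only. MGAT3, which adds the bisecting N-acetylglucosamine to N-glycans, rose by 1.70 and 2.59 (main effect 4.42-fold, adjusted p = 2.05e-08). RGMA, a repulsive guidance molecule and coreceptor for bone morphogenetic proteins, rose by 1.95 and 2.12 (4.10-fold, adjusted p = 1.14e-06). PRR35 and GRM8, a metabotropic glutamate receptor, were also detected on exposed arrays only and rose at least 2.69-fold and 1.76-fold. AEBP1, a secreted collagen-binding protein, rose by 1.69 and 1.75. PNMA3, an X-linked member of the paraneoplastic antigen family, measured 6.33 in WT and 7.83 in WT-v, and 5.71 in DoxR and 7.20 in DoxR-v (2.81-fold, adjusted p = 1.90e-05). The difference between backgrounds was called for MGAT3 among these 8 genes.

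Other genes with a large main effect owed most of it to the resistant background. ECI2, an enoyl-CoA isomerase of fatty acid oxidation, had means of 8.15 (WT), 9.15 (WT-v), 5.06 (DoxR) and 10.99 (DoxR-v), so that the main effect of 3.46 (SE 0.17) joined 0.99 in the parental and 5.93 in the resistant background. RPL39L, a ribosomal protein paralogue best known from testis, rose by 1.00 and 5.40. The matrix proteoglycans lumican (LUM) and decorin (DCN) rose by 0.96 and 4.87 and by 0.98 and 4.67. TUBB4A, a neuronal β-tubulin, rose by 0.98 and 4.78 (at least 5.36-fold over both), and ITM2A, a membrane protein, by 1.06 and 3.59 (at least 3.30-fold). In all 6 genes DoxR had the lowest mean of the 4 groups, and the difference between backgrounds was called. EDIL3, an integrin ligand, also had its lowest mean in DoxR (4.61, not above background), with 5.89 in WT, 6.91 in WT-v and 7.04 in DoxR-v.

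**Figure D2:**
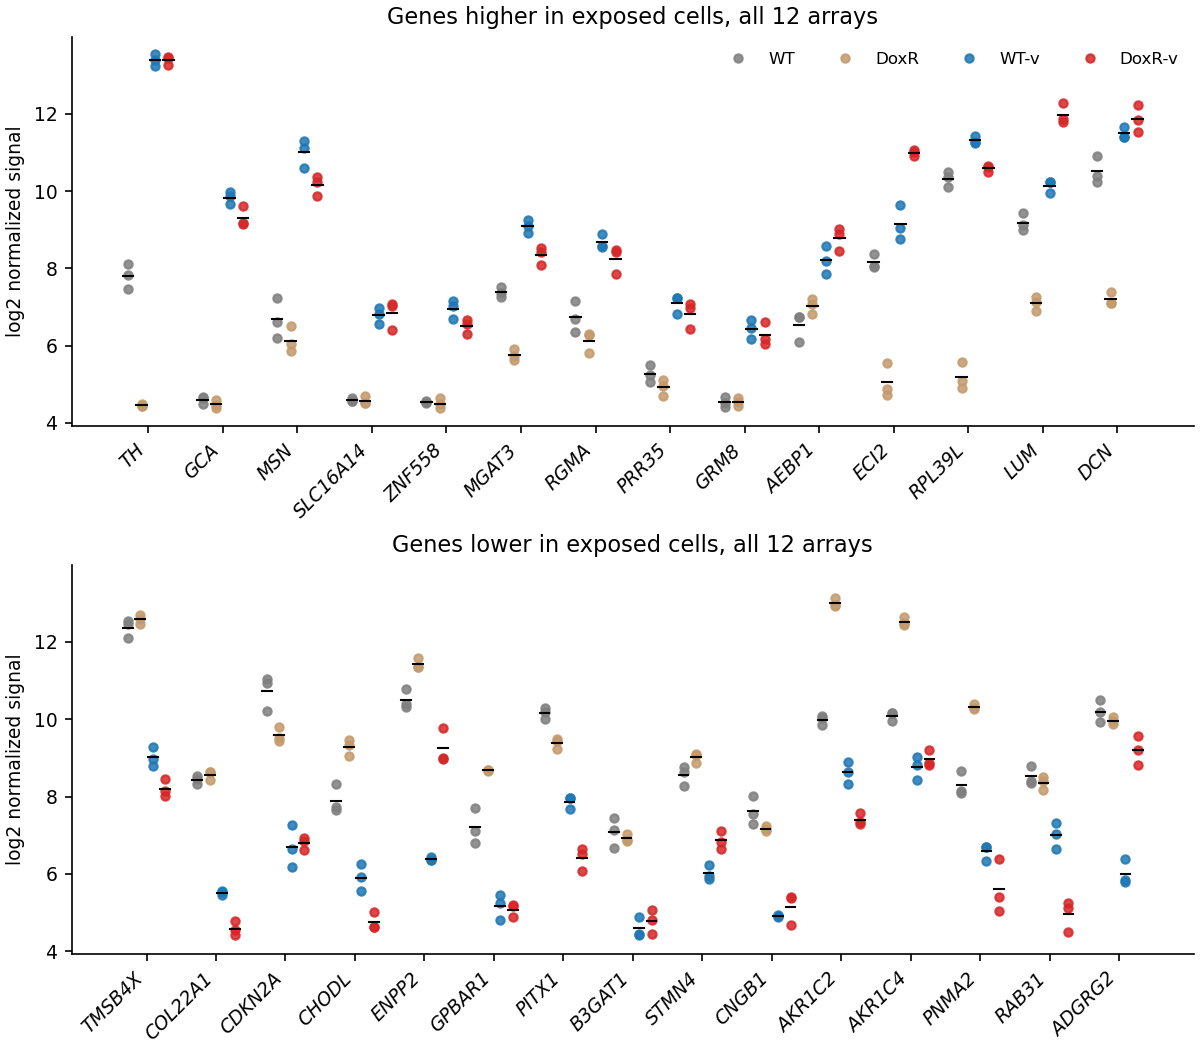
Log2 normalized signal (y axis) of the named genes on each of the 12 arrays; points are arrays coloured by group and black bars are group means of 3 arrays. In each gene all WT-v and DoxR-v points lie on the same side of all WT and DoxR points, and for ECI2, RPL39L, LUM and DCN the DoxR arrays lie far below the WT arrays.

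TMSB4X had the largest fall of the 12138 genes. It encodes thymosin β4, a small peptide that sequesters actin monomers. Its signal was 12.47, 12.53 and 12.09 on the WT arrays and 12.47, 12.70 and 12.58 on the DoxR arrays. It was 8.80, 9.28 and 8.98 on the WT-v arrays and 8.13, 8.02 and 8.46 on the DoxR-v arrays. All exposed arrays were lower than all unexposed arrays. TMSB4X fell by 3.86 on the log2 scale (SE 0.12, adjusted p = 3.45e-10). The effect was −3.34 in the parental and −4.38 in the resistant background, and this difference was called (adjusted p = 0.00573). Of the other thymosins, TMSB15A was called higher, by 1.13 (adjusted p = 6.86e-05), though its arms overlapped, and TMSB10 changed by −0.38 and was not called.

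CDKN2A encodes the cell cycle inhibitor p16INK4a and, from another reading frame, p14ARF, and the probe signals reported here were not split between the transcripts. Its signal ranged from 9.45 to 11.03 on the unexposed arrays and from 6.17 to 7.27 on the exposed arrays, again without overlap. It fell by 3.42 on the log2 scale (SE 0.19, adjusted p = 3.90e-08), with effects of −4.03 in the parental and −2.80 in the resistant background. A second CDKN2A probe fell by 3.15. The adjacent inhibitor gene CDKN2B was called lower in the main effect (at least 1.49-fold), with overlap between the arms. Its fall was called in the parental background only (at least 1.89-fold, not detected in WT-v). It had means of 6.87 in DoxR and 6.63 in DoxR-v. CDKN1A, which encodes the inhibitor p21 and is known to be induced by deacetylase inhibitors, went opposite ways, from 10.37 in WT to 5.84 in WT-v and from 5.83 in DoxR to 9.17 in DoxR-v. Of the 19 measured genes of CDK inhibitors, cyclins and the RB family, 0 were called higher and 3 lower in the main effect (1 and 2 with median scaling), a share of 15.8% against 15.3% of all genes. In opposite directions in the backgrounds 6 of the 19 were called, against 641 of the 12138 genes.

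Falls were called in both backgrounds for the 8 further genes described here, among others named by rule. COL22A1, a collagen, fell by 3.46 on the log2 scale (SE 0.10, adjusted p = 7.24e-11, at least 7.88-fold) and was no longer detected in DoxR-v cells. ENPP2, the autotaxin that makes lysophosphatidic acid, had effects of −4.12 in the parental and −2.19 in the resistant background. GPBAR1, a bile acid receptor, was detected on 6 of 6 unexposed and 0 of 6 exposed arrays and fell at least 5.56-fold. B3GAT1, which makes the HNK-1 glycan of neural cells, and CNGB1, a cyclic nucleotide-gated channel subunit, were lost from detection in the same way (at least 2.90-fold and 3.79-fold). In the same order of backgrounds, the effects were −2.28 and −2.98 for PITX1, a homeobox factor, and −2.55 and −2.15 for STMN4, of the stathmin family. CHODL, the lectin chondrolectin, had means of 7.90 (WT), 5.90 (WT-v) and 9.28 (DoxR), was not detected in DoxR-v and fell at least 7.31-fold. Of these 8 genes, B3GAT1 and STMN4 had no called difference between backgrounds.

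Of the aldo-keto reductases, AKR1C2, AKR1C3 and AKR1C4 were called lower, and DoxR was the highest of the 4 groups in each. AKR1C2 had means of 9.99 (WT), 8.62 (WT-v), 13.01 (DoxR) and 7.40 (DoxR-v). Enzymes of this family reduce the carbonyl group of doxorubicin. The main effect of AKR1C2 was −3.49 (SE 0.11, adjusted p = 3.59e-10), with −1.37 in the parental and −5.61 in the resistant background. AKR1C4 changed by −2.45 on the probe with the highest mean and by 0.27 on a second, dim probe, and AKR1C3 by −1.48 (adjusted p = 2.53e-06) with overlap between the arms. These paralogues are close in sequence, so their probes may share signal. Of the 27 measured genes of anthracycline targets and metabolism, 3 were called higher and AKR1C2 and AKR1C3 lower (18.5%, against 15.3% of all genes). Other falls were uneven between backgrounds too. PNMA2, a paraneoplastic antigen, had effects of −1.71 in the parental and −4.71 in the resistant background, and RAB31, a small GTPase, −1.52 and at least 7.04-fold lower, as it was not detected in DoxR-v. ADGRG2, an adhesion receptor, had the reverse order, −4.20 and −0.76.

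A few genes were detected in 1 arm only. On all 6 exposed and 0 of 6 unexposed arrays, 17 genes were detected, and all 17 were called without overlap. Beside GCA, SLC16A14, ZNF558, PRR35, GRM8 and ITM2A they included NOTCH3, a Notch receptor (log2 1.16, at least 1.48-fold), and HMOX1, the haem oxygenase induced by oxidative stress (log2 1.49, at least 2.12-fold). The reverse held for 11 genes, of which 10 were called without overlap. Beside GPBAR1, B3GAT1 and CNGB1 these included NDRG1, a gene raised by hypoxia and differentiation, which fell at least 2.52-fold. The WT arrays of NDRG1 were uneven (9.40, 6.63 and 7.34), and its fall in the resistant background (−0.77) was not called. With the line as a random block NDRG1 was not called (adjusted p = 0.584).

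Among the catecholamine genes only TH was without overlap between the arms. Of 16 measured genes of the pathway, 3 were called higher (TH, DBH and GCH1) and 1 lower (PCBD1), against 7.41% and 7.9% of all genes. With the line as a random block DBH (adjusted p = 0.587), GCH1 (0.735) and PCBD1 (0.795) were not called. PCBD1 kept its call in 12 of 26 alternative settings, and lost it when any 1 of 6 arrays was left out (replicate 2 of WT, 2 or 3 of WT-v, 3 of DoxR, 1 or 2 of DoxR-v), with median scaling and with the deposited values. GCH1 kept its call in 18 of the 26. Of the pathway, 4 of the 16 were called in opposite directions in the backgrounds, against 641 of all 12138 genes. DBH had means of 12.92 (WT), 12.24 (WT-v), 8.81 (DoxR) and 13.12 (DoxR-v), so its main effect of 1.81 (SE 0.16) joined −0.68 in the parental and 4.31 in the resistant background. GCH1, which starts synthesis of the TH cofactor tetrahydrobiopterin, changed by −0.40 and 1.72. The vesicular transporter SLC18A1 had effects of −1.44 in the parental and 0.98 in the resistant background. SLC18A2 fell at least 2.49-fold in the parental and rose at least 2.33-fold in the resistant background, as WT-v and DoxR did not detect it. MAOA, which breaks catecholamines down, had the reverse signs, 1.14 and −1.04. DDC was called higher in the resistant background only (0.08 and 0.98). PTS, SPR and SULT1A3 were called in neither. The median main effect of the list was −0.01, against 0.03 for all genes.

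**Figure D3:**
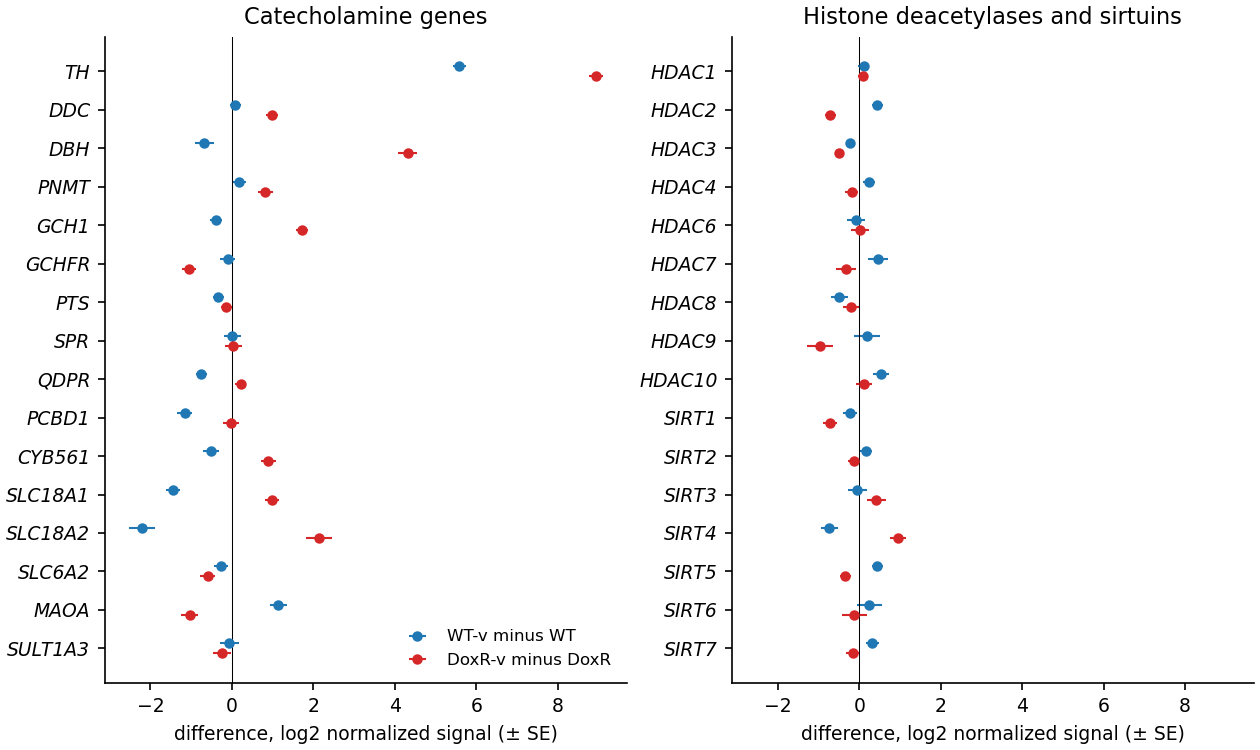
Difference WT-v minus WT (blue) and DoxR-v minus DoxR (red) in log2 normalized signal on the x axis, with the standard error from limma, for the 16 measured catecholamine genes and the 16 measured histone deacetylases and sirtuins. TH lies far to the right in both backgrounds, while SLC18A2, which was detected in WT and DoxR-v only, and DBH change sign between backgrounds; no deacetylase or sirtuin is more than 1 unit from 0, HDAC9 (−0.97) and SIRT4 (0.95) in the resistant background being the farthest.

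The genes that followed TH most closely over the 12 arrays were AURKA (Pearson r = 0.988), EME1 (0.987), EDIL3 (0.979), CEP128 (0.978) and AGPAT2 (0.975). The arrays come from 4 lines, so the likeness is mainly one of 4 group means. AURKA, the mitotic kinase Aurora A, had means of 11.14 (WT), 11.77 (WT-v), 10.68 (DoxR) and 11.82 (DoxR-v). EME1, a subunit of a DNA structure-specific nuclease, had 6.57, 7.52, 5.99 and 7.61 in the same order of groups, CEP128, a centriole protein, 6.90, 7.49, 6.43 and 7.50, and AGPAT2, an enzyme of glycerolipid synthesis, 7.35, 7.91, 6.77 and 7.87. Picked for their correlation with TH, all 5 shared its order, with DoxR lowest, WT next and both exposed groups highest. Their main effects, 0.83 to 1.73, were far smaller than that of TH.

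Of 16 measured histone deacetylases and sirtuins, 0 were called in either direction in the main effect under the 4 scales tried, against 15.3% of all genes. The sirtuins are class III enzymes, which vorinostat does not inhibit. In the parental background SIRT4 was called lower, and in the resistant background SIRT4 was called higher and HDAC2, HDAC9 and SIRT1 lower. At an adjusted p under 0.1 alone, HDAC3 and SIRT1 passed, but with fold changes of 1.27 and 1.39. HDAC3, a class I enzyme, was without overlap, with means of 9.79 (WT), 9.57 (WT-v), 9.85 (DoxR) and 9.36 (DoxR-v). HDAC1 measured 11.32, 11.42, 11.01 and 11.11 in the same order (main effect 0.10, SE 0.09). In the parental and resistant backgrounds HDAC2 changed by 0.44 and −0.71, HDAC9 by 0.19 and −0.97, SIRT1 by −0.23 and −0.72, and SIRT4 by −0.74 and 0.95. Among 25 measured subunits of deacetylase complexes, 2 were called higher and 3 lower (20% in all, and 4 and 1 with median scaling). Without overlap were MTA1 of the NuRD complex, which rose 1.69-fold, and SAP30L and SAP18 of the SIN3 complex, which fell 1.90-fold and 1.52-fold. A second SAP30L probe had 0.40 in the parental and −1.46 in the resistant background, and its main effect (−0.53) was not called. SAP18 lost its call without replicate 3 of WT or 2 of DoxR-v, with median scaling and with the deposited values. Of 19 acetyltransferases and bromodomain readers, EP300 was called higher (2.07-fold) and KAT2B lower (log2 −0.97), a share of 10.5%. With median scaling 5 were higher and 1 lower, and with the deposited values 0 and 0. EP300 rose by 1.73 in the parental background and had 0.37, not called, in the resistant one.

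Of 14 measured genes known from textbooks to rise under deacetylase inhibitors, 0 were called higher and 6 lower in the main effect, against 7.41% and 7.9% of all genes, with a median of −0.48 against 0.03. In the parental background 2 were called higher and 5 lower, against 14.5% and 12.6% of all genes, and in the resistant background 1 and 8, against 14.7% and 14.5%. The 6 of the main effect were CDKN1A, CLU, DHRS2, MT2A, STMN4 and SYT11, of which the last 2 are the less established members of the list. CLU, the chaperone clusterin, had means of 5.68 (WT), 5.08 (WT-v) and 6.63 (DoxR) and was not detected in DoxR-v, at least 1.80-fold lower over both backgrounds. SYT11, a synaptotagmin, had effects of −0.62 in the parental and −1.09 in the resistant background. MT2A, a metallothionein, had 0.66 and −2.80. With median scaling the list had 0 higher and 5 lower, and with the deposited normalized values 0 and 3. Of 13 genes known to fall, TOP2A was called higher and BCL2 and MYC lower, and MYC was detected on 2 of the 12 arrays only. BCL2, which blocks apoptosis, fell by 0.97 without overlap (adjusted p = 5.16e-06), with −0.52 (not called) in the parental and −1.42 in the resistant background.

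Of 30 measured G2/M genes, 6 were called higher and 0 lower in the main effect, and of 25 G1/S and replication genes, 4 were called higher (CDC45, MCM2, MCM5 and RRM2) and 0 lower, against 7.41% of all genes called higher. The medians of the lists were 0.30 and 0.29, against 0.03 for all genes. Under the other scales tried the lists had 6 to 10 and 4 genes called higher and 0 lower. AURKA, AURKB, KIF23, TOP2A and TPX2 were without overlap. With the line as a random block AURKA (adjusted p = 0.154), AURKB (0.402), TOP2A (0.262), TPX2 (0.486) and MCM5 (0.597) were not called, and MCM5 also lost its call without replicate 1 of WT, 3 of WT-v or 2 of DoxR-v. AURKB, the kinase Aurora B, rose 1.79-fold, by 0.99 in the parental and 0.69 in the resistant background. TOP2A, the topoisomerase that doxorubicin poisons, had means of 11.61 (WT), 12.55 (WT-v), 11.65 (DoxR) and 12.30 (DoxR-v) and rose 1.74-fold (adjusted p = 6.79e-05). TPX2, an activator of Aurora A, rose by 1.40 in the parental background and had 0.36, not called, in the resistant one. In the parental background 16 of the 30 G2/M genes were called higher and 0 lower, against 14.5% of all genes called higher there and 12.6% lower. In the resistant background 4 were called higher and 3 lower, against 14.7% and 14.5%, and the median of the list was 0.02.

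Actin regulators were called often, in both directions. Of 33 measured genes, 8 were higher and 4 lower (36.4%, against 15.3% of all genes). Called the same way in both backgrounds were 7 of the 33, against 4.25% of all genes. Without overlap, MSN, CNN2 and ACTB rose and TMSB4X and PLS3 fell. ACTB, β-actin itself, had means of 13.78 (WT), 14.52 (WT-v), 13.80 (DoxR) and 14.38 (DoxR-v), a rise of 1.59-fold (adjusted p = 0.000972). PLS3, the actin bundler plastin 3, fell 1.82-fold. LCP1, its haematopoietic relative, rose at least 2.95-fold in the parental background, where WT did not detect it, and by 1.99 in the resistant background, with overlap between the arms, since WT-v (7.19) lay below DoxR (7.62). Of 24 measured mesenchymal and matrix genes, 4 were called higher and 8 lower (50% in all, against 15.3% of all genes; 5 and 8 with median scaling, 2 and 5 with the deposited values). MSN and NOTCH3 were without overlap, and both rose. The 8 that were lower included CALD1, COL4A1, SNAI2 and SPARC, in which DoxR was the highest group. CALD1, an actin-binding protein, had effects of −0.35 in the parental and −4.04 in the resistant background, and SNAI2, a repressor of epithelial genes, had 1.21 and −3.34. CD44, a hyaluronan receptor, fell at least 4.34-fold in the parental background, where WT-v did not detect it, and had 0.34, not called, in the resistant one.

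Of 23 measured genes of neuronal differentiation, 5 were called higher and 2 lower, against 7.41% and 7.9% of all genes. CNTN1, an axonal adhesion molecule, rose by 1.01 and 1.98 and was the one gene of these that rose without overlap. GAP43, a growth cone protein, rose by 0.76 and 0.71 with overlap. DCX, a microtubule protein of migrating neurons, had −0.92 and −2.49. NEFH and TAGLN3 changed sign, with −2.92 and 5.68 for the former and −1.65 and a rise of at least 45.9-fold over undetected DoxR for the latter. Of 21 synaptic vesicle genes, 2 were called higher and 4 lower (28.6% in all, against 15.3% of all genes, and 4 and 3 with median scaling). RIMS2, an active zone protein, had −1.38 and −1.43 (adjusted p of the main effect = 4.74e-07), and SYN2, a synapsin, −0.91 and −1.04, both without overlap. Of 21 adrenergic core transcription factors, 0 were called higher and 4 lower (19% in all, and 1 and 3 with median scaling), 0 of them without overlap, and MYCN was not called (means of 14.54 in WT, 14.79 in WT-v, and 14.50 and 14.63 in DoxR and DoxR-v). Among neuropeptides, NPY rose by 2.62 and 0.82 and galanin (GAL) had −1.31 and −1.22, while SST rose at least 29.3-fold in the resistant background and was not detected in the other 3 groups.

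The remaining lists held few genes without overlap. In the cholesterol and fatty acid list, 6 of 28 genes were called higher and 3 lower (32.1% in all, against 15.3% of all genes, and 10 and 2 with median scaling). In the parental background 9 were called higher and 1 lower, against 14.5% and 12.6% of all genes. In the resistant background 6 and 10 were, against 14.7% and 14.5%. Without overlap, ACACA, which commits acetyl-CoA to fatty acid synthesis, rose 2.24-fold (log2 0.69 in the parental and 1.64 in the resistant background). The lipid regulator SREBF1 rose 1.89-fold (1.29 and 0.54, the latter not called). The acetyl-CoA synthetase ACSS2 rose 1.81-fold (0.44, not called, and 1.27). With the line as a random block ACACA (adjusted p = 0.194), SREBF1 (0.365) and ACSS2 (0.257) were not called. Of 17 measured p53 targets, 0 were called higher and 5 lower (29.4% in all, against 15.3% of all genes). These counts became 2 and 3 with median scaling and 0 and 0 with the deposited values. SESN1, a sestrin, had effects of −1.31 and −1.06, and TP53INP1 −0.59 and −1.47. Among heat shock genes BAG3, a cochaperone, had −3.54 in the parental and −0.66 in the resistant background, and HSP90AB1 rose 1.66-fold. HSPA1B rose 1.77-fold and HSPA1A fell by 0.59 on the log2 scale. The call of HSPA1A held in 13 of 26 alternative settings and was lost without any 1 of 6 arrays (replicate 1 or 2 of WT, 1 or 3 of WT-v, 3 of DoxR, 2 of DoxR-v), with median scaling and with the deposited values. These adjacent genes are nearly identical in sequence and their probes may share signal. In the Notch list 4 of 18 genes were called higher (NOTCH3, JAG2, DLK1 and DLK2) and 2 lower (HES5 and HEY1), 33.3% in all, against 15.3% of all genes. HES5 was detected on at most 1 array of each group. With the deposited values 2 were called higher and 1 lower, and NOTCH3 and DLK2 lost their call. Called the same way in both backgrounds were 5 of the 18, against 4.25% of all genes. The imprinted genes DLK1, IGF2, MEG3 and NDN were called higher (4 of 11 measured, with 0 lower, against 7.41% and 7.9% of all genes). In the parental background 1 of the 11 was called higher and 1 lower, against 14.5% and 12.6% of all genes. In the resistant background 5 and 0 were, against 14.7% and 14.5%. DLK1 had −0.27 in the parental and 6.52 in the resistant background. IGF2 had means of 8.15 in WT and 8.08 in WT-v, while NDN was called higher in both backgrounds. DoxR did not detect IGF2 or NDN. MAGEB2, a cancer-testis antigen, rose at least 30.8-fold in the parental background and was not detected in WT, DoxR or DoxR-v. ABCB1, the drug efflux pump P-glycoprotein, was not called (main effect −0.44), with 0.19 in the parental and −1.06 in the resistant background.

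**Figure D4:**
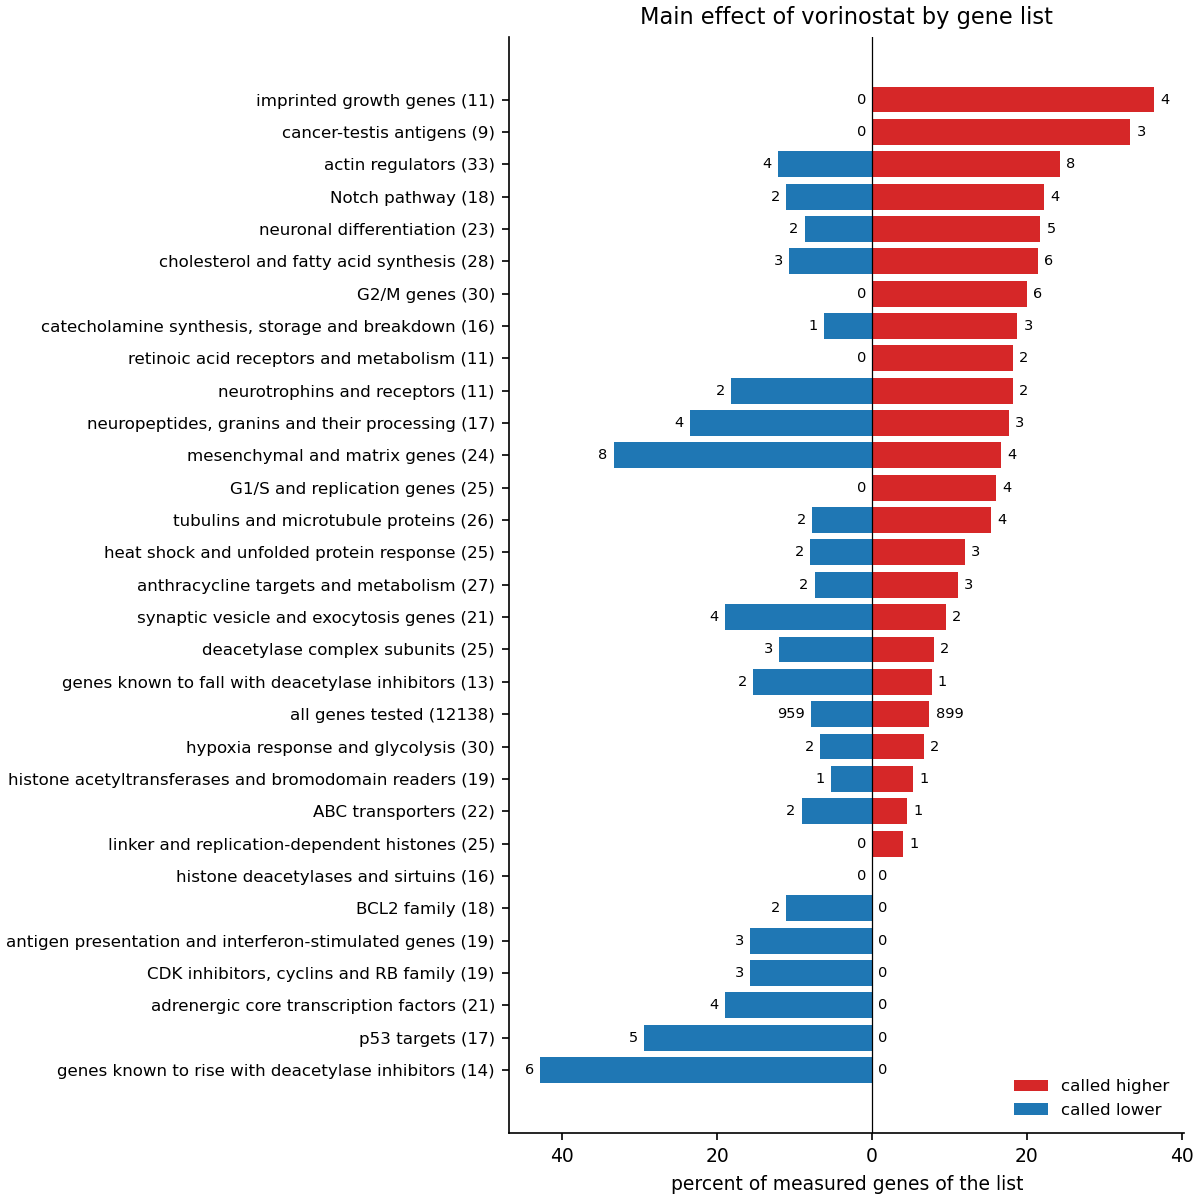
Percent of the measured genes of each list (number in brackets) called higher (red, to the right) or lower (blue, to the left) in exposed cells, with the count at each bar end; lists with under 9 measured genes are not drawn. The G2/M, G1/S, imprinted and cancer-testis lists have bars to the right only, the genes known to rise with deacetylase inhibitors have a bar to the left only (6 of 14), and all genes tested have 899 higher and 959 lower.

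The genes without overlap were spread unevenly over the chromosomes. On chromosome X, 61 of 435 measured genes (14%) were lower and 3 (0.69%) higher, against 2.6% and 2.14% of all genes tested. On chromosome 8, 41 of 455 (9.01%) were lower and 2 higher, and on chromosomes 13, 5 and 10 the counts were 13 and 0, 28 and 2, and 22 and 1. On chromosome 14, 27 of 399 (6.77%) were higher and 1 lower, on chromosome 20, 25 of 331 (7.55%) were higher and 6 lower, on chromosome 7, 28 and 2, and on chromosome 22, 12 and 0. The shift was not limited to the genes called, as the median main effect of all measured genes was −0.30 on X, −0.25 on 8, 0.24 on 14 and 0.31 on 22. On X the median was −0.44 in the parental and −0.18 in the resistant background. In the same order it was −0.14 and −0.33 on chromosome 8, 0.08 and 0.39 on 14, 0.08 and 0.32 on 20, and 0.05 and 0.51 on 22. The upward shifts on 14, 20 and 22 thus lay mostly in the resistant background. When the X genes in RefSeq order were cut into 8 parts of 54 or 55 genes, parts 6 and 7, from FAM199X to VMA21, held 32 of the 61 lower genes, with medians of −0.53 and −0.60 in the backgrounds. The other parts together had −0.40 and −0.10. On chromosome 8, parts 5 to 7, from TERF1 to THEM6, held 26 of the 41, with medians of −0.24 and −0.77. The parts set apart on both chromosomes were those with the lowest median main effects. Their contrast with the other parts thus follows from that choice and is a description only. With median scaling, X had 28 lower and 5 higher and chromosome 8 had 22 and 3, and with the deposited values 48 and 3, and 30 and 1. Copy number was not measured in these data. MSN and PNMA3 rose although they lie on X, and TMSB4X, the largest fall, also lies there.

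**Figure D5:**
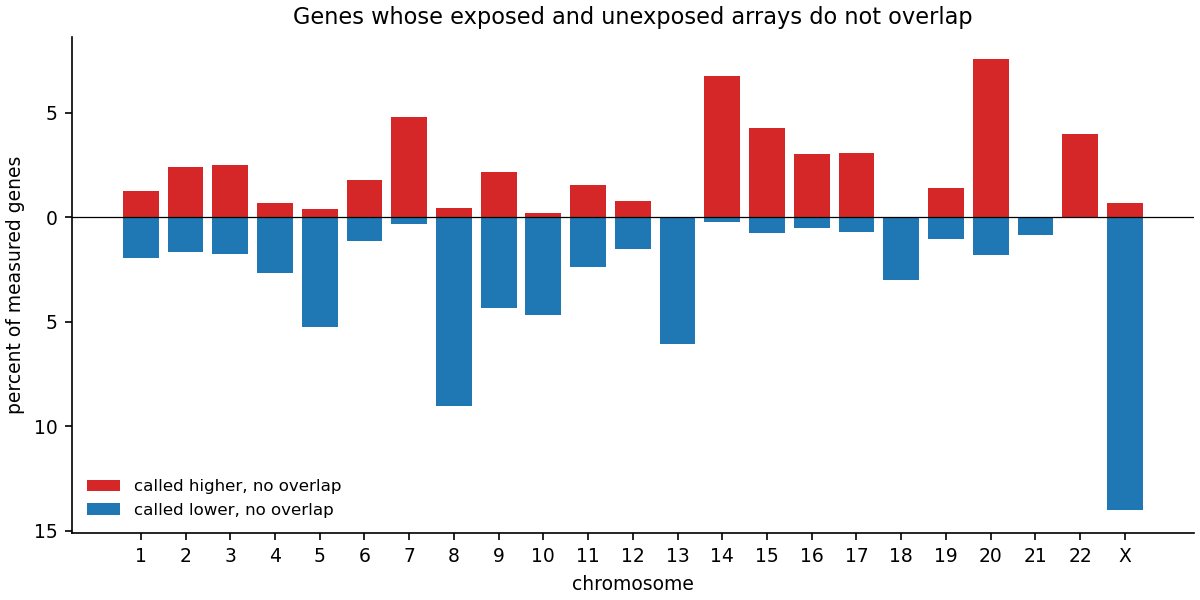
Percent of the measured genes of each chromosome (x axis) called higher (red, upward) or lower (blue, downward) without overlap between the exposed and unexposed arrays. Chromosomes X (14%) and 8 (9.01%) have the longest downward bars, and 20 (7.55%) and 14 (6.77%) the longest upward bars.

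Genes called the same way in both backgrounds were a small part of the genes called in either. WT-v against WT had 3284 genes called (27.1%), and DoxR-v against DoxR had 3535 (29.1%). These comparisons share no array. Called in the same direction in both were 516 genes (4.25%), 223 higher (1.84%) and 293 lower (2.41%), that is, 15.7% of the first list and 14.6% of the second. Of all genes tested, DoxR-v against DoxR called 14.7% higher and 14.5% lower, and WT-v against WT called 14.5% and 12.6%. The shared calls thus lay near the shares of all genes, and the overlap was not tested. Called in opposite directions were 641 genes, 19.5% and 18.1% of the lists, of which 311 rose in the parental and fell in the resistant background and 330 did the reverse. Across the 12138 genes the effects in the backgrounds had a Pearson r of −0.06 and a Spearman rho of −0.06, and 48% of genes had effects of the same sign. The genes are not independent, and this is a description. The test of the difference itself called 5148 genes (42.4%). Of the variation between arrays over all genes, 24.9% lay along the main effect of vorinostat, 29.3% along resistance, 28.1% along the difference of the vorinostat effect between backgrounds and 17.6% between arrays of a group.

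Of the 1858 genes of the main effect, 516 were called the same way in both backgrounds, 1262 in 1 background, 77 in opposite directions and 3 in neither. Of the 576 genes without overlap, 331 were called in both backgrounds and 245 in 1, and 239 had a called difference between backgrounds. The median size of the main effect in the 576 was 0.89, against a median standard error of 0.12 over all probes. The share of probes detected was 33% to 36.5% on exposed and 31.3% to 34.5% on unexposed arrays, the median raw signal was 103 to 125 and 98.8 to 121, and arrays of a group correlated at 0.981 to 0.993.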

How the data were processed

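RNA of 12 samples was hybridised to Illumina HT-12 v4 BeadChips. The deposited intensity of each probe was summarised from beads by the authors and not normalized between arrays, and a detection p-value was deposited with each. A second deposited table of intensities was normalized by the authors, and the submitters' notes on processing give lumi 2.13.3 with R 3.0.1. The number of arrays limits the precision. Background was removed by normexp with an offset of 16, its parameters taken from the detection p-values, and arrays were then quantile normalized and log2 transformed, which understates the change of dim genes. Probes with a detection p under 0.01 on at least 1 array were kept (21730), and the probe with the highest mean stood for each of 12138 genes. Of 47323 probes, 30113 had 1 symbol, 8 had several and 17202 had none, and 30074 were matched to RefSeq. limma 3.58.1 in R 4.3.3 fitted 1 mean per group, with Benjamini-Hochberg adjustment over all probes, and was tested on simulated data. A group with no detected array was set to the lowest signal detected on its arrays, and such folds are printed as at least that value.

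The genes named were those called without overlap that rose or fell most (12 each by the main effect and 10 each by the smaller effect of the 2 backgrounds), up to 4 such members of each list, all measured deacetylases and catecholamine genes, and the 5 genes most like TH. Other list members were named after their values were seen. The comparison and the gene lists were chosen with earlier results of these data known. SK-N-SH samples were not analysed here. The alternatives were other normalizations, filters, thresholds and models, and leaving out each array.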

Additional observations from a re-analysis of the deposited data

Results flagged for a closer look

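The difference of the vorinostat effect between backgrounds (resistant minus parental, log2, limma) was called for 54 of the 97 genes examined by name. Over all genes tested it was called for 5148 of 12138 (42.4%), and many of the 97 were picked by the size of their effects. Each value here is that difference, with its adjusted p under 0.1, and no explanation of it was tested.

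Among genes whose main effect was a rise, the difference was positive for TH (3.35), ECI2 (4.94), RPL39L (4.40), LUM (3.92), TUBB4A (3.80), DCN (3.68), ITM2A (2.52), HMOX1 (1.67), EDIL3 (1.40), HSPA1B (1.13), DLK2 (0.98), CNTN1 (0.97), ACACA (0.95), MGAT3 (0.89), ACSS2 (0.84) and EME1 (0.67). It was negative for EP300 (−1.36), TPX2 (−1.05) and SREBF1 (−0.75). These 3 rose more in the parental background.

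Among genes whose main effect was a fall, the difference was negative, a larger fall in the resistant background, for AKR1C2 (−4.24), PNMA2 (−3.01), CHODL (−2.53), AKR1C4 (−2.23), RAB31 (−1.88), GPBAR1 (−1.57), CLU (−1.39), COL22A1 (−1.07), TMSB4X (−1.04), BCL2 (−0.89), TP53INP1 (−0.87), PITX1 (−0.70) and PLS3 (−0.68). It was positive, a larger fall in the parental background, for ADGRG2 (3.44), BAG3 (2.88), NDRG1 (2.00), ENPP2 (1.93), CDKN2A (1.24), PCBD1 (1.14) and CNGB1 (0.68).

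Of the other catecholamine genes, DBH (4.99), SLC18A2 (4.35), SLC18A1 (2.42), GCH1 (2.12), CYB561 (1.42), QDPR (0.96), DDC (0.90) and PNMT (0.65) had a positive difference, and MAOA (−2.18) and GCHFR (−0.95) a negative one. Among the deacetylases and sirtuins it was called for HDAC9 (−1.16), HDAC2 (−1.15), HDAC7 (−0.80), SIRT5 (−0.79) and SIRT4 (1.69). HDAC7 and PNMT were near background in most arrays. In 17 of the 54 genes at least 1 group had no detected array, so that the value rests partly on signals at background. They were TH, TUBB4A, ITM2A, HMOX1, EDIL3, DLK2, COL22A1, CHODL, GPBAR1, RAB31, CNGB1, CLU, NDRG1, SLC18A2, GCHFR, HDAC7 and PNMT.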

How the results depend on the processing

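The genes of the main effect numbered 1858, those without overlap 576, those called the same way in both backgrounds 516, those called in opposite directions 641 and those with a called difference between backgrounds 5148. With the deposited normalized values these became 647, 308, 189, 209 and 2933, and at a fold change over 2 they became 502, 216, 131, 168 and 2801. Without background correction 842, 232 and 268 genes were called in the main effect, the same way and in opposite directions, and with an offset of 50 the main effect had 1208 and the opposite directions 410. Without a term for background the main effect had 1202 genes. With the cell line as a random block (correlation of arrays of a line 0.596) 96 genes were called, all 96 without overlap, and with the means of the lines, 2 against 2, 1 gene was called, which was without overlap. Both of these fits also lacked a term for background. The cause of these moves was not tested. With each array left out in turn the counts ranged from 1809 to 2046, 592 to 769, 491 to 570, 601 to 739 and 4815 to 5511.

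With the replicate number as a block 1857, 576, 513, 636 and 5049 genes were called, and all 69 named genes called in the main effect kept their call. The numbers do not pair the samples, as 1 of 18 same-numbered pairs deviated together with a correlation over 0.1 (range −0.271 to 0.116) and 1 of 12 arrays matched its own number best. Of the 69 named genes, 30 kept their call with the line as a random block, 54 with the deposited values, 47 at a fold change over 2 and 60 without background correction. In the other fits apart from the line means at least 65 did, and 0 reversed in any. The opposite-direction counts and the list and chromosome counts under other scales were added after the values were seen.

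The limit that matters most is the number of lines. Arrays of 1 line describe that line, and 2 lines an arm cannot tell a drug effect from the history of 1 culture. Dim genes have compressed fold changes and, where undetected, bounds only.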
